A study of Mus musculus with 6 samples.

Results

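The circadian clock genes examined here are the 10 genes Arntl, Clock, Per1, Per2, Per3, Cry1, Cry2, Nr1d1, Nr1d2 and Dbp, chosen by symbol from the 55484 genes of the tables, and all 10 were among the 15508 genes that the authors tested. RNA was taken from femoral bone of wild-type C57BL/6 males kept on normal chow and single-housed from 6 weeks of age. For 6 weeks the sedentary group lived in plain cages and the wheel running group in cages with a freely accessible running wheel, and bones were taken at 12 weeks of age. Each group had 3 libraries from separate mice, which the authors pooled to 1 FPKM per gene (fragments per kilobase of transcript, scaled to library size), so no spread between mice can be given. The time of day at which bones were taken, and the handling of marrow and attached muscle, are not stated in the sources used here. Osteocyte markers were present (Dmp1 at 145 and 169 FPKM in sedentary and running mice), as were neutrophil markers (S100a8 at 20105 and 16793 FPKM), so the RNA came from bone and marrow or blood cells together.

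The clock is a feedback loop of transcription. In the activating arm, the proteins of Arntl (BMAL1) and Clock bind E-box sequences and switch on the Per and Cry genes, whose proteins then inhibit BMAL1 and CLOCK, and also the genes of the REV-ERB receptors (Nr1d1 and Nr1d2), which repress Arntl through ROR elements. Dbp is an E-box output whose protein binds D-box sequences. In rodent tissues, bone included, transcripts of the PER, REV-ERB and Dbp genes cycle roughly opposite to Arntl over the day.

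Stretches that match these kinds of sequence are shown for 4 members, since the comparison below sets the repressing genes against the activating ones. They come from RefSeq promoter windows (GRCm38.p6, 250 bases before to 50 after a start), read 5′ to 3′ on the gene's strand. Capitals mark an E-box (CACGTG), a D-box (TTATGTAA or TTACGTAA) or a ROR element.
Per1, E-box, chr11:69098739-69098838, plus strand: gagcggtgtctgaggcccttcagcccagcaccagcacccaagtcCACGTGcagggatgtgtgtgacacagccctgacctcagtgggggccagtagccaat
Cry1, E-box, chr10:85185065-85185164, minus strand: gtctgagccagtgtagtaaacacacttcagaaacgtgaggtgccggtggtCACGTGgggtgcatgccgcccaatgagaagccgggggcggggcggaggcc
Per3, both D-boxes, chr4:151044796-151044895, minus strand: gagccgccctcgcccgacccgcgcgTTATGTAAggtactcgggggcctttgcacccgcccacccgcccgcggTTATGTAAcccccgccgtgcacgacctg
Arntl, ROR element, chr7:113207527-113207556, plus strand: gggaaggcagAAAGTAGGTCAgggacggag

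Of the 10 members 9 had a promoter window, 13 windows in all; Per2 had no entry. Both strands were searched. The E-box lay in windows of 2 members, Per1 and Cry1. In Per1 it lay 166 bases before a start that is inside the annotated gene span, and the other Per1 window held none. In Cry1 it lay 60 bases before the start. It was found in 7.15% of all 32851 windows and for 8.09% of all 27025 genes with a window. The D-box lay in the window of 1 member, Per3, at 205 and 158 bases before its start. It was found in 1.06% of all windows and for 1.23% of genes. The longer ROR element consensus lay in a window of 1 member, Arntl, 27 bases after a start, in annotated exon sequence. It was found in 0.384% of all windows and for 0.459% of genes. The core AGGTCA of this element lay in 4 of the 13 member windows, those of 4 members (Arntl, where it is part of the element shown, Clock, Nr1d2 and Per1). It was found in 16.3% of all windows and for 18.1% of genes. A match is a run of letters within these 300 bases, not a measured site, and elements outside the window were not searched.

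None of the 10 members differed between the groups by the authors' test (q under 0.05 in their deposited table), in which 0.941% of all tested genes were called. In their group values the 2 activating genes were level, with a log2 fold of 0.01 for Arntl and of -0.01 for Clock. Of the 7 repressing genes, 6 were higher in running mice, by 11.8% (Cry2) to 34.1% (Per1), while the difference for Cry1 was -1.46%. Each log2 fold is that of running against sedentary mice after 0.1 FPKM was added to both values. A sign close to 0 depended on scaling: 8 of 10 members were above 0 as deposited, and all 10, Clock and Cry1 included, once both groups had an equal total FPKM. Of all tested genes, 48.2% had a log2 fold above 0. At an unadjusted p under 0.05 in the authors' deposited table stood 1 member, Per1, against 5.65% of tested genes in either direction and 3.42% in the direction of higher values in running mice.

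The error of each difference follows from the deposited values. The authors' log2 fold divided by their test statistic gives an SE, and the intervals they deposited with each FPKM, combined over both groups, were 2 times as wide each way as this SE (median over 13065 genes). The authors' intervals are therefore given here as 2 SE each way. What their model counts as error is not stated in the sources used here, so how far these SEs take in the spread between mice is not known.

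**Figure D1:**
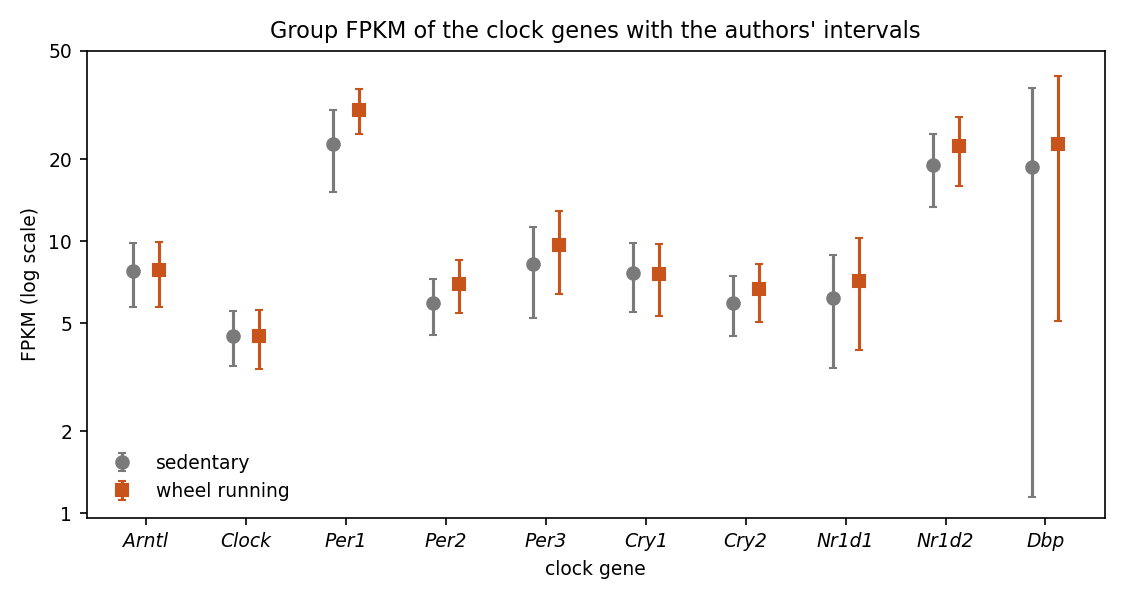
Group FPKM (log axis) of the 10 clock genes in sedentary (grey circles) and wheel running mice (orange squares), 1 pooled value per group with the authors' interval as the bar. Per1, Nr1d2 and Dbp are the 3 most abundant in both groups, and the 2 bars of every gene overlap.

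The activating arm stood at nearly the same level in both groups. Arntl (ENSMUSG00000055116; chromosome 7, 113207465 to 113314126, plus strand, GRCm38) encodes BMAL1, the partner without which CLOCK does not drive rhythms. It stood at 7.77 FPKM (authors' interval 5.72 to 9.83) in sedentary and 7.80 FPKM (5.72 to 9.88) in running mice. Clock (ENSMUSG00000029238; chromosome 5, 76209868 to 76304792, minus strand), which encodes the partner of BMAL1 in the dimer, stood at 4.50 FPKM (3.47 to 5.53) and 4.48 FPKM (3.39 to 5.57), the lowest level of the 10 in both groups. The intervals of the groups lay almost on top of each other for both genes. The authors' log2 fold with 2 SE each way ran from -0.54 to 0.55 for Arntl and from -0.49 to 0.48 for Clock. Arntl was 1.73 times as abundant as Clock in sedentary and 1.74 times in running mice. A processed pseudogene inside Clock on the same strand, Ube2n-ps1, was listed at 5.88 and 6.92 FPKM. The other transcripts that overlap or adjoin the activating genes, Gm45355 at Arntl and Gm43658 and Gm7467 at Clock, were listed at under 1 FPKM in both groups.

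The 3 PER genes were each higher in running mice, and none was called. Per1 (ENSMUSG00000020893; chromosome 11, 69095217 to 69109960, plus strand) encodes a repressor of BMAL1 and CLOCK and is, besides its E-box control, a direct target of the glucocorticoid receptor. It was the most abundant member in both groups, at 22.7 FPKM (15.1 to 30.2) in sedentary and 30.4 FPKM (24.7 to 36.1) in running mice. The running value lay just above the upper bound of the sedentary interval, and the intervals overlapped. Its ratio was 1.34 and its log2 fold 0.42, at percentile 95.4 of the 14488 tested genes that reached 1 FPKM in either group. In the authors' deposited table its p was 0.0143 and its q 0.517, and the log2 fold with 2 SE each way ran from -0.13 to 0.98.

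Per2 (ENSMUSG00000055866; chromosome 1, 91415982 to 91459324, minus strand), the PER gene whose loss most disturbs rhythm in mice together with Per1, stood at 5.91 FPKM (4.54 to 7.28) and 6.98 FPKM (5.43 to 8.52). Its ratio was 1.18, and in the authors' deposited table its p was 0.0616 and its q 0.940. Per3 (ENSMUSG00000028957; chromosome 4, 151003652 to 151044665, minus strand), whose product is less needed for the central rhythm, stood at 8.25 FPKM (5.23 to 11.3) and 9.67 FPKM (6.40 to 12.9), a ratio of 1.17. For both genes each group's value lay inside the other group's interval. Per3 lies inside Camta1 on the same strand, and the authors' table places both in 1 locus. Camta1 was listed at 8.39 and 9.63 FPKM with intervals that reach 0, so fragments could be shared between the 2 genes. Summed over the 3 PER genes the level was 36.8 FPKM in sedentary and 47.1 FPKM in running mice, of which Per1 made up most.

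The 2 CRY genes, which encode the cryptochromes that inhibit BMAL1 and CLOCK most directly, differed least among the repressing genes. Cry1 (ENSMUSG00000020038; chromosome 10, 85131700 to 85185064, minus strand) stood at 7.66 FPKM (5.50 to 9.81) and 7.54 FPKM (5.30 to 9.78). Cry2 (ENSMUSG00000068742; chromosome 2, 92403646 to 92434043, minus strand) stood at 5.95 FPKM (4.47 to 7.43) and 6.65 FPKM (5.04 to 8.25), a ratio of 1.12. On the opposite strand Cry2 overlaps D930015M05Rik, listed at 0.0494 and 0.0618 FPKM. Cry1 was thus level between the groups like Arntl and Clock, with a log2 fold of -0.02 that became 0.02 with an equal total FPKM. The 2 members that carry the E-box in these windows, Cry1 and Per1, had log2 folds of -0.02 and 0.42, with SEs of 0.30 and 0.28. Within its error Cry1 is not told apart from Arntl and Clock. Whether the E-box goes with the difference was not tested. Background for Cry1 is that its transcript peaks later than the PER transcripts, through added ROR elements outside the window.

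The 2 REV-ERB genes were higher by a like amount. Nr1d1 (ENSMUSG00000020889; chromosome 11, 98767932 to 98775333, minus strand) encodes REV-ERB alpha and stood at 6.17 FPKM (3.43 to 8.91) and 7.12 FPKM (3.9955 to 10.2), a ratio of 1.15. Nr1d2 (ENSMUSG00000021775; chromosome 14, 18204054 to 18239127, minus strand) encodes REV-ERB beta and stood at 19.0 FPKM (13.4 to 24.7) and 22.3 FPKM (15.9 to 28.7), a ratio of 1.17. Nr1d2 was 3.08 times as abundant as Nr1d1 in sedentary and 3.13 times in running mice, with intervals of the 2 genes apart in both groups. The last 1075 bases of Nr1d1 overlap Thra, a thyroid hormone receptor gene on the opposite strand, which stood at 17.7 and 21.5 FPKM (q = 0.99966 in the authors' deposited table). Whether strand was used in counting is not stated, so fragments of this overlap could fall to either gene.

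Dbp (ENSMUSG00000059824; chromosome 7, 45705088 to 45710203, plus strand), a PAR bZIP factor with a strong daily rhythm in most tissues, stood at 18.8 FPKM in sedentary and 22.7 FPKM in running mice, a ratio of 1.21. Its intervals were the widest of the 10 members, from 1.15 to 36.4 FPKM and from 5.08 to 40.2 FPKM, and reached 93.9% and 77.6% of the value each way. Among 7650 tested genes at 10 FPKM or more in both groups the median was 26.2% and 26.0%, and 1.97% and 2.80% of them were wider than Dbp. The log2 fold with 2 SE each way ran from -1.48 to 2.03, so a wide range of differences of Dbp in either direction lies within the error. Sphk2, which overlaps the last 737 bases of Dbp on the opposite strand and shares its locus in the authors' table, stood at 10.02 FPKM (1.81 to 18.2) and 10.2 FPKM (1.94 to 18.4), again with wide intervals.

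**Figure D2:**
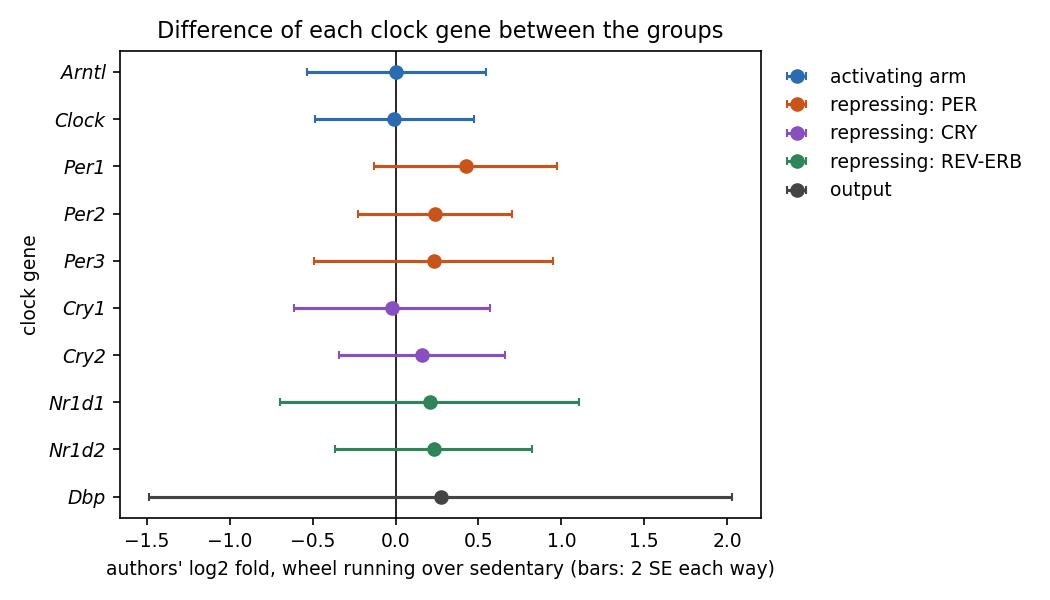
The authors' log2 fold of each clock gene (wheel running over sedentary) as a point with 2 SE each way as the bar, coloured by arm. Arntl, Clock and Cry1 sit at 0, the other 7 genes to the right of it, and every bar crosses 0.

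The arms were then set against each other. The median log2 fold was 0.23 over the 7 repressing genes and -0.00048 over the 2 activating genes, a difference of 0.23, which rescaling a group moves only through the pseudocount. The error of this difference is not known, since the genes share their libraries and are not replicates, and no test was made of it. For a single member the median SE of the log2 fold was 0.29. The difference lay between 0.21 and 0.26 over 18 other ways of computing it, all from the same pooled values. Among them were leaving out each gene in turn and using the REV-ERB genes alone (0.22). The CRY genes alone were not among these ways, and their median log2 fold was lower, at 0.07. As ratios within a group, Per1 over Arntl was 2.92 in sedentary and 3.90 in running mice, Nr1d2 over Arntl was 2.45 and 2.86, and Cry1 over Arntl was 0.985 and 0.967.

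Over all 10 members the median log2 fold was 0.22, beside -0.01 over all tested genes. Of the 10, 7 lay above the upper quartile (0.11) of log2 folds among tested genes reaching 1 FPKM in a group, as 25% of those genes do by construction: Per1, Per2, Per3, Cry2, Nr1d1, Nr1d2 and Dbp. The activating genes and Cry1 lay between the quartiles. The members are linked through the same feedback loop and are not independent of each other, so the count describes their position and is no test. None of the 10 had intervals apart, against 0.574% of all tested genes.

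**Figure D3:**
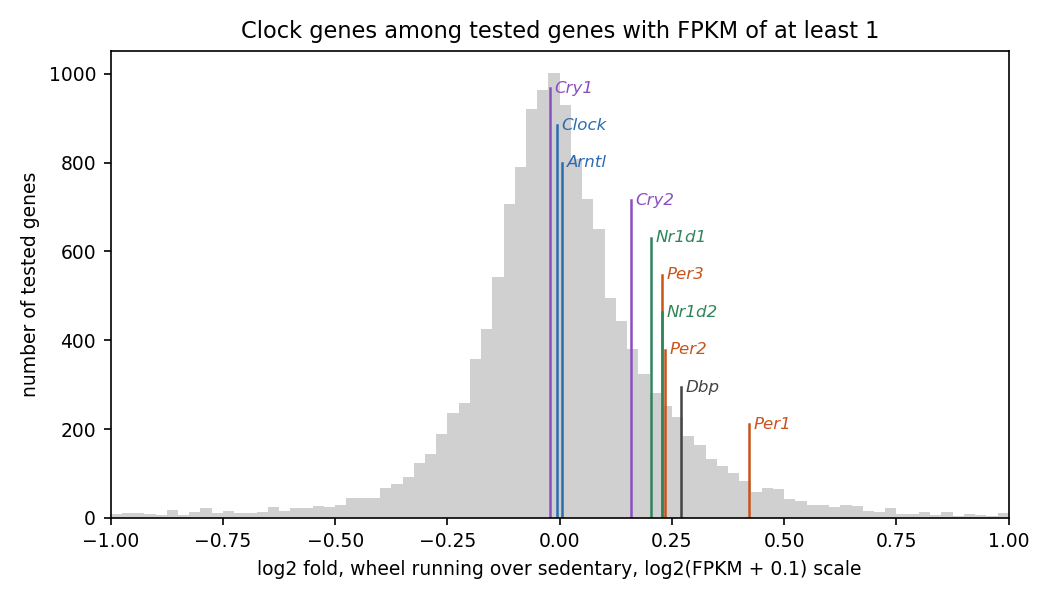
Histogram of log2 folds (wheel running over sedentary) of the 14488 tested genes reaching 1 FPKM, with a line at each clock gene, coloured by arm as activating (blue), PER (orange), CRY (purple), REV-ERB (green) and output (black). 287 genes beyond 1 in size are not drawn, and line heights only separate the labels; Arntl, Clock and Cry1 stand at the centre, Per1 at 0.42 farthest out.

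How large a difference the authors' test could call at these levels is seen from other genes. The members' mean levels ran from 4.49 FPKM (Clock) to 26.5 FPKM (Per1), and 6845 tested genes lay in this range. Of these 54 were called, 0.789%, with a median log2 fold of 0.91 in size. The smallest call had a log2 fold of 0.44 in size, with an SE of 0.20. Per1 had a log2 fold of 0.42 with a larger SE, 0.28, and its q was 0.517 in the authors' deposited table. The differences of the other repressing genes, up to 0.24, were about as large as 1 SE or smaller and were not detectable here.

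In order of level, Per1, Nr1d2 and Dbp led in both groups, followed by Per3, Arntl and Cry1, then by Nr1d1, Cry2 and Per2, with Clock last. Neighbours in the order did not differ beyond their intervals, with the exception of Nr1d2 and Per3 in running mice. Dbp and Nr1d2 changed places between the groups, and so did Per2 and Cry2, in both cases within the intervals. The members lay between percentile 31.3 (Clock) and 75.4 (Per1) of tested genes by mean FPKM. With 1 value per group, genes could not be ranked for likeness of pattern to the members.

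Among 46 further genes of the clock pathway, 43 were tested, and the 4 calls were all outputs: Tsc22d3, Klf9 and Fkbp5 rose and Noct fell. Over all tested genes 0.445% were called higher and 0.497% lower. Noct (chromosome 3) encodes nocturnin, a rhythmically expressed enzyme related to the CCR4 deadenylases. It stood at 18.4 FPKM (13.9 to 22.9) in sedentary and 11.3 FPKM (8.54 to 14.1) in running mice, so its log2 fold was -0.70, with q = 0.00718 in the authors' deposited table, its smallest. The intervals overlapped only at their ends. An unclassified transcript inside Noct on the same strand, Gm38357, was listed at 2.68 and 1.21 FPKM, so fragments could be shared.

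The 3 higher outputs are also glucocorticoid targets. Tsc22d3, which encodes the leucine zipper protein GILZ, rose from 106 to 147 FPKM. Klf9, a Krüppel-like factor gene, rose from 15.02 to 21.1 FPKM, and Fkbp5, which encodes a cochaperone of the glucocorticoid receptor, from 35.4 to 46.3 FPKM. They belong to a list of 11 glucocorticoid-responsive genes of which 5 were called higher and none lower, with a median log2 fold of 0.39. The log2 folds of all 10 members, from -0.02 (Cry1) to 0.42 (Per1), lay within that list's range of -0.10 to 0.48. The lower end of that range is Cebpd alone, and the list's other genes ran from 0.21 to 0.48. Per1, Per2, Per3, Nr1d2 and Dbp lay within this narrower range, and Arntl, Clock, Cry1, Cry2 and Nr1d1 (0.20) below it. Whether the members move with this list was not tested. Without the 4 genes shared with the glucocorticoid list, the pathway list held 1 call, Noct, among 39 tested genes, and its median log2 fold was 0.04. The list was chosen with earlier results of these data known, so its count gives no independent evidence.

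The remaining pathway genes were uncalled. Rora, which encodes a receptor that activates Arntl through ROR elements, stood at 2.69 (1.63 to 3.75) and 3.06 (1.92 to 4.21) FPKM. Npas2, an alternative to Clock, was under 1 FPKM in both groups and untested, as was Fbxl21; Rorb was listed at 0. All 5 genes of E-box competitors and other repressors had a log2 fold above 0, with a median of 0.24. In that group Cipc stood at 14.5 and 17.1 FPKM, Bhlhe41 at 1.54 and 2.02, Ciart at 2.83 and 3.41, Timeless at 23.0 and 24.2, and Bhlhe40 at 14.8 and 15.05.

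Of the D-box factors none was called. The activators Tef and Hlf, PAR bZIP relatives of Dbp, stood at 29.7 (21.4 to 38.1) and 37.2 (27.3 to 47.0) FPKM and at 1.87 (1.02 to 2.73) and 2.60 (1.60 to 3.60) FPKM. In the authors' deposited table their p was 0.0380 and 0.0221 and their q 0.802 and 0.651. The D-box repressor Nfil3 stood at 6.31 and 6.25 FPKM. The log2 folds of Dbp, Tef and Hlf ran from 0.27 to 0.45, with every interval overlapping between the groups, and their summed level was 50.4 FPKM in sedentary and 62.4 FPKM in running mice.

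Genes of the machinery that modifies clock proteins gave no call. The 6 kinase and phosphatase genes had a median log2 fold of 0.02, among them Csnk1d (37.6 and 38.3 FPKM) and Csnk1e (22.8 and 22.2 FPKM), the kinases that mark PER proteins for degradation. The 5 tested ubiquitin ligase and protease genes had a median of 0.07 and the 8 genes of chromatin regulators and cofactors a median of -0.03. None of these 19 genes had a p under 0.05 in the authors' deposited table.

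**Figure D4:**
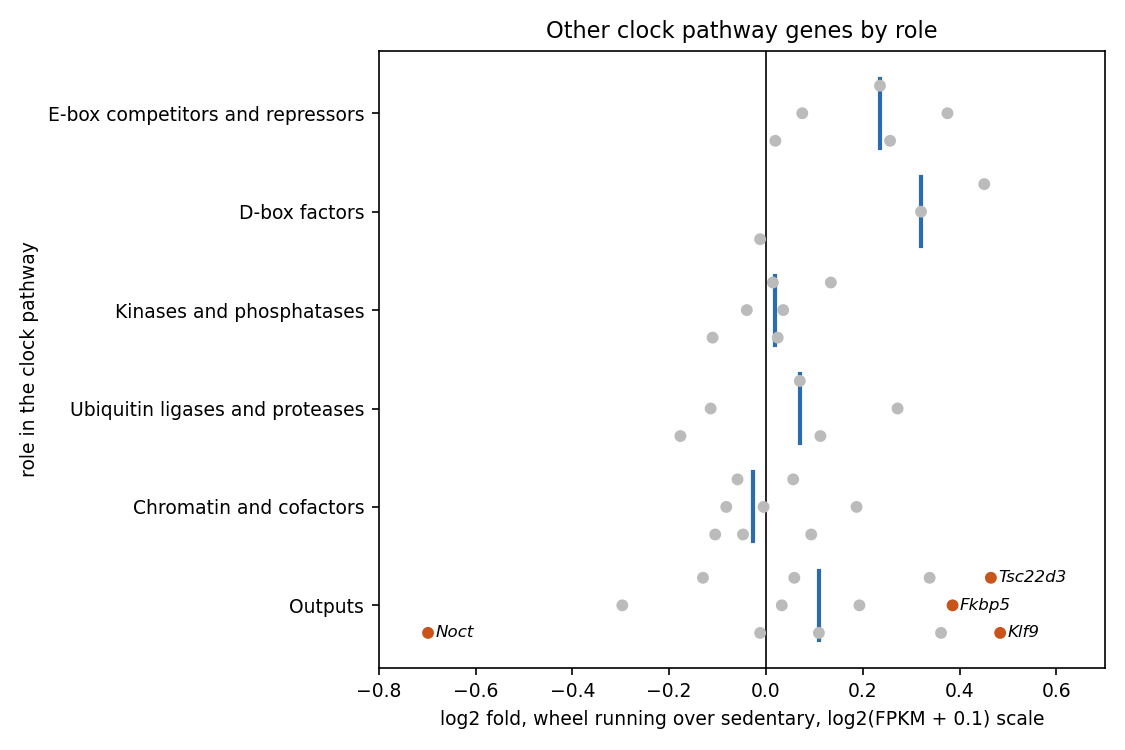
Log2 fold (wheel running over sedentary) of 40 of the 43 tested further clock pathway genes by role (the activating role is not drawn), 1 point per gene, orange and named where called, with a blue bar at each role's median. The kinase, ligase and chromatin groups centre near 0, and the 4 calls are outputs, Noct on the left and Tsc22d3, Klf9 and Fkbp5 on the right.

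Clock genes are expressed in most cell types, and the markers of several cell types differed between the same libraries. For skeletal muscle 7 of 7 markers had a log2 fold above 0 (2 called), with a summed level of 1277 FPKM in sedentary and 1553 FPKM in running mice. For adipocytes all 5 tested markers did (3 called), with sums of 335 and 486 FPKM and Lep under 1 FPKM in both groups. For osteocytes 4 of 5 tested markers did (2 called higher, 1 lower), with sums of 328 and 413 FPKM and Pdpn listed at 0. For osteoblasts all 5 did (none called). In contrast 7 of 7 neutrophil markers had a log2 fold below 0, with sums of 50919.5 and 43156 FPKM. So did 5 of 5 B lineage markers, with sums of 286 and 259 FPKM, and none of either list was called. The T cell and macrophage lists each had 3 of 4 markers above 0, and the erythroid list 3 of 5. The endothelial and osteoclast lists each had 3 of 4 above 0, and none of these markers was called. Over all tested genes 0.445% were called higher and 0.497% lower, and 48.2% had a log2 fold above 0. The part of the cell mixture in the values of the repressing genes, Tef, Hlf and Noct was not tested, and in bulk RNA more cells of a type and more RNA per cell cannot be told apart.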

How the data were processed

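Per the labels' protocols, RNA was obtained with TRIzol, polyadenylated RNA was used, and libraries were built with a directional NEBNext Ultra kit. Named in the submitters' processing notes, with no role, are Cufflinks 2.2.1, HISAT2 2.2.1, SAMtools 1.10, Trimmomatic 0.39 and GRCm38. Per the file headers, the columns are those of Cuffdiff. The authors deposited 1 FPKM per gene and group with interval bounds. Their deposited table of the comparison adds a log2 fold, a p-value, a q-value and a test statistic, which is a score. That q equals a Benjamini-Hochberg adjustment of p over 15508 genes (largest difference 5.21e-07). Library depths are not stated in the sources used here. With 0 columns of single libraries, the authors' q under 0.05 was the call. Log2 folds were computed with a pseudocount of 0.1 FPKM in Python 3.11.15 with pandas 2.3.3, and the code was tested on simulated data. Coordinates are from GENCODE vM21 (GRCm38), joined on Ensembl IDs. The loci of 7 of the 10 members equal those in the authors' table, and the other loci also take in an overlapping gene. All members have the same FPKM in both deposited tables.

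Named were all members, called pathway genes with the first 12 uncalled ones at 1 FPKM or more in list order, genes overlapping a member or starting within 2000 bases of its start, and up to 2 genes per marker list. 1 pathway gene that this rule takes in is not reported here. Npas2, Rorb, Fbxl21, Gm38357, Cebpd, Lep and Pdpn were named after their values were seen. The members and lists were chosen with earlier results of these data known. Alternatives were other thresholds, pseudocounts, scalings, level filters and compositions of the arms.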

Additional observations from a re-analysis of the deposited data

How the results depend on the processing

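No paired analysis was possible because each group has 1 pooled value and replicate numbers appear in no column. Leaving out a mouse, and the fits planned for separate libraries, could not be run either, so a single mouse behind a value could not be seen. The count of 0 called members stayed 0 under all 7 alternatives, all of which reuse the authors' test. Several of them could not have added a call. A q under 0.01 is stricter, and no member reached a log2 fold of 0.5 or a test statistic of 2. The largest values, both of Per1, were 0.42 and 1.54. The 4 calls among further pathway genes were 3 with q under 0.01, 4 with q under 0.1 and 0 with intervals apart, a stricter demand than the test. The members' median log2 fold, 0.22, lay between 0.19 and 0.26 under 8 alternatives. The count of members above 0, for which the scalings were added after seeing the data, was 8 to 10: an equal total raised the log2 folds by about 0.04, an equal upper quartile by 0.03 and a median of 0 by 0.01.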

Other observations

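The p-value of Per1 in the authors' deposited table, 0.0143, stands beside a test statistic of 1.54, for which a two-sided normal score would give 0.124. The same holds widely in that table: of 876 tested genes with p under 0.05, 713 have a statistic under 2 in size. The sources used here do not state how p was derived from the statistic, and a count of members by p therefore depends on which of these columns is read.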
